A study of Mus musculus with 24 samples.

Results

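The 10 genes described here are muscle genes: the sarcomeric myosin heavy chains Myh1, Myh2, Myh3, Myh4 and Myh8, the striated muscle actins Acta1 and Actc1, the myogenic transcription factors Myod1 and Myog, and the intermediate filament gene Des. They were 10 of the 45706 genes counted, and 5 of them (Myh1, Myh2, Acta1, Actc1 and Des) were among the 16573 genes with enough reads to be tested. The genes were chosen by their measured values, because Myh1, Myh2 and Acta1 responded to Vhl loss and differed in the double line. The values of the 10 genes in the Cre and GFP libraries of those lines, and differences built on them, are therefore given as a description without a test. Of all genes tested, 36.1% were called (adjusted p under 0.05) between Cre and GFP in Vhl cells, 29.7% in Vhl/Rassf1a cells, and 6.09% for the difference between these Cre effects. Each gene was matched to 1 Ensembl identifier by its symbol.

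RNA of cultured mouse embryonic fibroblasts, taken from E13.5 embryos, was sequenced in 24 libraries, 3 for each of 8 groups. The groups were Vhl Cre and Vhl GFP, Vhl/Rassf1a Cre and Vhl/Rassf1a GFP, Rassf1a Cre and Rassf1a GFP, and WT Cre and WT GFP. Cre libraries are labelled as knockout and GFP libraries as control, so the WT Cre libraries carry that label without an altered gene named. The labels give neither the altered exons, nor how Cre or GFP was brought into the cells, nor whether replicates came from separate embryos or cultures. Without that, the p-values cover no more than the scatter among these libraries, and it may be technical scatter. The series title sets the work in the context of clear cell renal cell carcinoma, a kidney cancer. Both genes are known as tumour suppressors.

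Library totals ran from 29.9 M to 55.8 M reads. Vhl itself stood at 2.57 ± 0.26 CPM (read counts per M reads of the scaled library; mean and SD, n = 3) in Vhl Cre cells, against 26.7 ± 0.97 in Vhl GFP cells. It stood at 2.10 ± 0.52 CPM in Vhl/Rassf1a Cre cells, against 22.0 ± 1.59 in Vhl/Rassf1a GFP cells. Rassf1, counted as a whole gene with every transcript it makes, stood at 26.6 ± 1.25 CPM in Rassf1a Cre cells against 27.9 ± 2.90 in Rassf1a GFP cells, with overlap (log2 fold change -0.07, SE 0.09, edgeR adjusted p = 0.998). It was higher in Vhl/Rassf1a Cre cells, at 45.2 ± 2.11 CPM against 32.6 ± 3.95 in Vhl/Rassf1a GFP cells (log2 0.47, SE 0.09, edgeR adjusted p = 0.000281). The same held in the Vhl line, where Rassf1a is not named as altered. There Rassf1 stood at 43.7 ± 1.00 CPM in Vhl Cre against 26.6 ± 2.49 in Vhl GFP cells, without overlap. The labels' loss of Rassf1a could thus not be seen at the level of the gene, and "Rassf1a" below is the name on the libraries. Fibroblast markers summed to 20794 to 33624 CPM in a library. Replicate 1 of the Rassf1a GFP group and replicate 2 of the Vhl/Rassf1a GFP group stood apart: the chi-square of their counts against the other replicates, per degree of freedom, was 27.3 to 51.9, against 2.78 to 9.05 for the other pairs of replicates.

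In a sarcomere, the contractile unit of striated muscle, heavy chains of muscle myosin pull on filaments of alpha-actin. Each heavy chain gene serves a fibre type or a stage of development. Myod1 and Myog switch these genes on in cells that become muscle, while the actin genes also answer to serum response factor, which acts in fibroblasts too. Vhl marks the alpha subunits of hypoxia-inducible factor (HIF) for destruction, so cells without it keep HIF active at normal oxygen. Fibroblasts are not known for sarcomeres: their own force comes from non-muscle myosins and from beta-, gamma- and smooth muscle actins.

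The adult fast heavy chains Myh1 (type IIx) and Myh2 (type IIa) were high in Vhl Cre cells, and the double line differed. Myh1 (ENSMUSG00000056328, GRCm38 chr11:67200052-67224575, plus strand) had 30.5, 32.9 and 34.7 CPM in the Vhl Cre libraries, against 9.35, 13.54 and 13.1 in the Vhl GFP libraries. In the double line it had 11.3, 14.0 and 13.2 CPM in Vhl/Rassf1a Cre libraries, against 14.1, 13.49 and 13.1 in Vhl/Rassf1a GFP libraries. The Vhl Cre libraries lay above all other libraries of the series, while the Cre and GFP libraries of the double line overlapped. Myh1 was thus 2.72-fold higher with Cre in Vhl cells (log2 fold change 1.44, SE 0.11). In Vhl/Rassf1a cells its log2 fold change was -0.08 (SE 0.11), and the Cre effect differed by -1.52 (Vhl/Rassf1a minus Vhl, log2 scale, SE 0.16).

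Myh2 (ENSMUSG00000033196, chr11:67171027-67197517, plus strand), which lies next to Myh1, had 28.3, 32.5 and 34.6 CPM in the Vhl Cre libraries, against 5.78, 6.62 and 6.66 in the Vhl GFP libraries. It had 9.54, 10.6 and 9.46 CPM in Vhl/Rassf1a Cre libraries, against 5.92, 5.85 and 6.05 in Vhl/Rassf1a GFP libraries. Here Cre and GFP libraries were apart in both lines, and every library of either line lay above every WT and Rassf1a library. The fold was 4.99 in Vhl cells (log2 2.32, SE 0.09) and 1.66 in Vhl/Rassf1a cells (log2 0.73, SE 0.09). The Cre effect on Myh2 differed by -1.59 (Vhl/Rassf1a minus Vhl, log2 scale, SE 0.12), much like that on Myh1, although Myh2 kept a response in the double line and Myh1 showed none beyond its error.

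**Figure D1:**
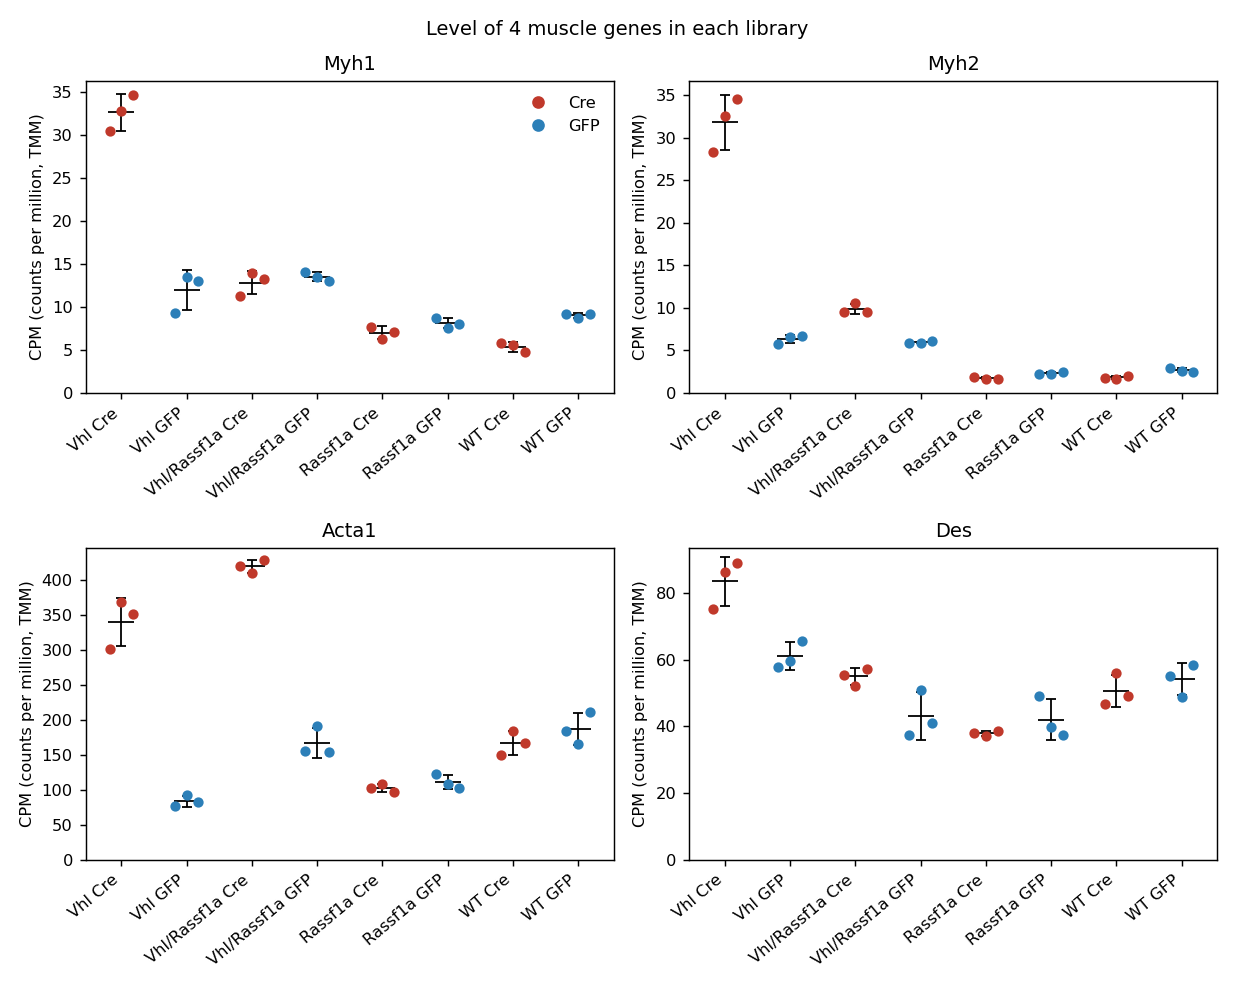
Level of Myh1, Myh2, Acta1 and Des in each library, as CPM with TMM library sizes, by group; points are libraries, the wide line is the group mean and the bars are 1 SD (n = 3). Vhl Cre libraries stand highest for Myh1, Myh2 and Des, and Vhl/Rassf1a Cre libraries for Acta1.

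Ordered by level, Myh1 was highest in Vhl Cre cells. Next came Vhl/Rassf1a GFP, Vhl/Rassf1a Cre and Vhl GFP cells, whose libraries overlapped from one to the next, then WT GFP, Rassf1a GFP and Rassf1a Cre cells, which overlapped likewise, and WT Cre cells last at 5.35 ± 0.56 CPM. Myh2 ran from Vhl Cre to Vhl/Rassf1a Cre, then Vhl GFP and Vhl/Rassf1a GFP cells, which overlapped, then WT GFP, Rassf1a GFP, WT Cre and Rassf1a Cre cells. The last pair of that order overlapped.

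Per kilobase of exon, so that genes can be set side by side, Myh1 stood at 5.15 ± 0.34 CPM per kb in Vhl Cre cells and 1.89 ± 0.36 in Vhl GFP cells. Myh2 stood at 4.45 ± 0.45 CPM per kb in Vhl Cre cells and 0.890 ± 0.070 in Vhl GFP cells. The non-muscle heavy chains Myh9 and Myh10 had group means of 223 to 257 and 57.2 to 71.2 CPM per kb. The sarcomeric heavy chains were thus a minor share of myosin message in every group, at their highest too.

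The balance between the neighbours moved as well. The ratio of Myh2 to Myh1, per kilobase, was 0.864 ± 0.033 in Vhl Cre cells and 0.479 ± 0.062 in Vhl GFP cells. It was 0.686 ± 0.057 in Vhl/Rassf1a Cre cells and 0.391 ± 0.019 in Vhl/Rassf1a GFP cells. In both lines the Cre libraries lay above the GFP libraries without overlap. The ratio was 0.222 ± 0.019 in Rassf1a Cre cells, 0.255 ± 0.026 in Rassf1a GFP cells, 0.306 ± 0.059 in WT Cre cells and 0.262 ± 0.023 in WT GFP cells, and there Cre and GFP libraries overlapped.

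**Figure D2:**
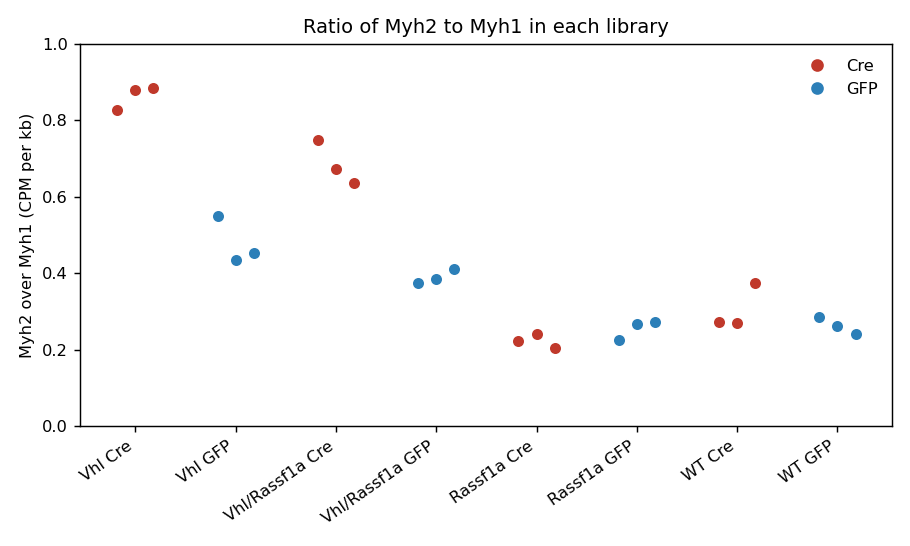
Ratio of Myh2 to Myh1, each as CPM per kilobase of exon, in each library by group; points are libraries. Group means ran from 0.222 in Rassf1a Cre to 0.864 in Vhl Cre cells.

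These heavy chains are close copies, which bears on how reads of one can be told from another. The longest run of bases that Myh1 and Myh2 transcripts share is 268 bases long, within the coding sequence (positions 2857 to 3124 of the Myh1 transcript and 2836 to 3103 of the Myh2 transcript), and is shown because a read inside it fits both genes:
Myh1 and Myh2: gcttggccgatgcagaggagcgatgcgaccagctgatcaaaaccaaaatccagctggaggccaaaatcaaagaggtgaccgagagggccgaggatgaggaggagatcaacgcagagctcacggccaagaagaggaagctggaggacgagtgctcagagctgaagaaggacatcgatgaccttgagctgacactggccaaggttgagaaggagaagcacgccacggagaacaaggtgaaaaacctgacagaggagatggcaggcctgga
Of the 50-base windows of the Myh1 transcript, 32.1% also occur in another gene, most often Myh2, and of those of Myh2, 28.9%. At 100 bases the shares were 14.7% for Myh1 and 11.2% for Myh2. How the authors counted reads with several matches is not given in the sources used here. The part of such reads in the likeness between Myh1 and Myh2 was not tested. The antisense genes Myhas, within Myh1, and 9430073C21Rik, at the end of Myh2, had 0 to 4 and 1 to 8 reads over the 3 libraries of a group, against 585 to 3815 reads of Myh1 and 198 to 3707 of Myh2.

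To show what stands before the starts of the genes that differed, 250 bases upstream of the RefSeq start (GRCm38.p6) are given for Acta1 (chr8:123894776-123895025, minus strand), Myh1 (chr11:67199852-67200101, plus strand) and Myh2 (chr11:67170777-67171026, plus strand). Actc1 (chr2:114052876-114053125, minus strand) and Myh4 (chr11:67237562-67237811, plus strand), which stayed near 0, are set beside them. RefSeq starts need not match the gene bounds given here from GENCODE. Capitals mark a CArG box, the site of serum response factor, in Acta1, Actc1 and on the right in Myh4, and a MEF2 box, the site of the muscle factors of the MEF2 family, in Myh1 and on the left in Myh4:
Acta1: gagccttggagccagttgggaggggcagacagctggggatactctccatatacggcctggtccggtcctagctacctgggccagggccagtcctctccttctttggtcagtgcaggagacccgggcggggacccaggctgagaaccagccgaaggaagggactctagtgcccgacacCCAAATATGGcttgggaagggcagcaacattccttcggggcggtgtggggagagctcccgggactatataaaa
Myh1: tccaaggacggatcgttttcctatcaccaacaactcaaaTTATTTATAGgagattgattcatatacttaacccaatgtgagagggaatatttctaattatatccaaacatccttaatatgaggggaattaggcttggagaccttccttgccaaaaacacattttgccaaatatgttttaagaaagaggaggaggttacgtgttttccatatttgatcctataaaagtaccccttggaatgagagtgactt
Myh2: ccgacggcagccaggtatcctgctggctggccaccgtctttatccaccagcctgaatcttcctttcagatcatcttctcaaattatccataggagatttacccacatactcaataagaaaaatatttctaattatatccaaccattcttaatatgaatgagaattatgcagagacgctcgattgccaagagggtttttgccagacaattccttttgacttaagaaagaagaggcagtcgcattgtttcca
Actc1: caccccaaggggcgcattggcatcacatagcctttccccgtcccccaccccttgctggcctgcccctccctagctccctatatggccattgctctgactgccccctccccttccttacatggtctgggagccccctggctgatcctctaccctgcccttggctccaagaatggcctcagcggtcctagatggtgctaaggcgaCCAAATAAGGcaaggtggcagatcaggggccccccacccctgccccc
Myh4: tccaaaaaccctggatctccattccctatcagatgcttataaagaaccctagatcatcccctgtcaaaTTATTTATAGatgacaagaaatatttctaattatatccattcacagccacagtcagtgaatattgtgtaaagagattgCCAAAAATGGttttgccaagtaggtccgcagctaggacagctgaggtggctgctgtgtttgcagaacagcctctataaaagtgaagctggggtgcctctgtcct
Of the 10 genes, 9 had such an entry (Myod1 had none). Searched on both strands, a CArG box was found in 3 of the 9 (Acta1, Actc1 and Myh4) and in 1.47% of all 32851 promoters of that table. A MEF2 box was found in 3 of the 9 (Myh1, Myh4 and Myh8) and in 2.92% of all. The core letters to which HIF binds, ACGTG, were found in Myh1, 54 to 50 bases before the start, and in Myh3, and in 16.6% of all promoters. The core GCGTG was found in Myh8 and in 28.2% of all. The letters CAGCTG, also searched, were found in 3 of the 9 (Acta1, Des and Myh4) and in 13.0% of all. TATAAA was found in 5 of the 9 (Acta1, Myh1, Myh3, Myh4 and Myh8) and in 12.4% of all. In Acta1 it lay 7 to 2 bases before the RefSeq start. The window before Myh2 held none of these motifs. It shared with that of Myh1 the run aatatttctaattatatccaa, 21 bases long, which begins 130 bases before the start in Myh2 and 165 in Myh1. A match is a string of letters and not a shown site, and a window without one says nothing of the factor.

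The developmental and fastest heavy chains were barely read. Myh3, the embryonic chain (ENSMUSG00000020908, chr11:67078300-67102291), had 0 to 11 reads in a library and 130 over all 24. Myh8, the perinatal chain (ENSMUSG00000055775, chr11:67277124-67308634), had 0 to 8 reads and 67 in all. Neither passed the filter, and their Cre and GFP libraries overlapped or met in every line.

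Myh4, type IIb and the fastest (ENSMUSG00000057003, chr11:67238029-67260446), had 26 reads in all. They were 2, 3 and 1 reads in Vhl Cre libraries, 0, 1 and 3 in Vhl GFP, 5, 0 and 6 in Vhl/Rassf1a Cre, and 2, 2 and 1 in Vhl/Rassf1a GFP libraries. All 12 Rassf1a and WT libraries had 0, and a count of 0 over a group's 3 libraries allows up to 3.69 reads (exact Poisson limit at 95%, counting error only). Reads of Myh4 were thus found only in the Vhl and Vhl/Rassf1a lines, in their GFP controls as well as with Cre. Of its transcript, 18.9% of the 50-base windows also occur in other genes, most often Myh1, which was itself higher in those lines, and the part of such reads was not tested.

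**Figure D3:**
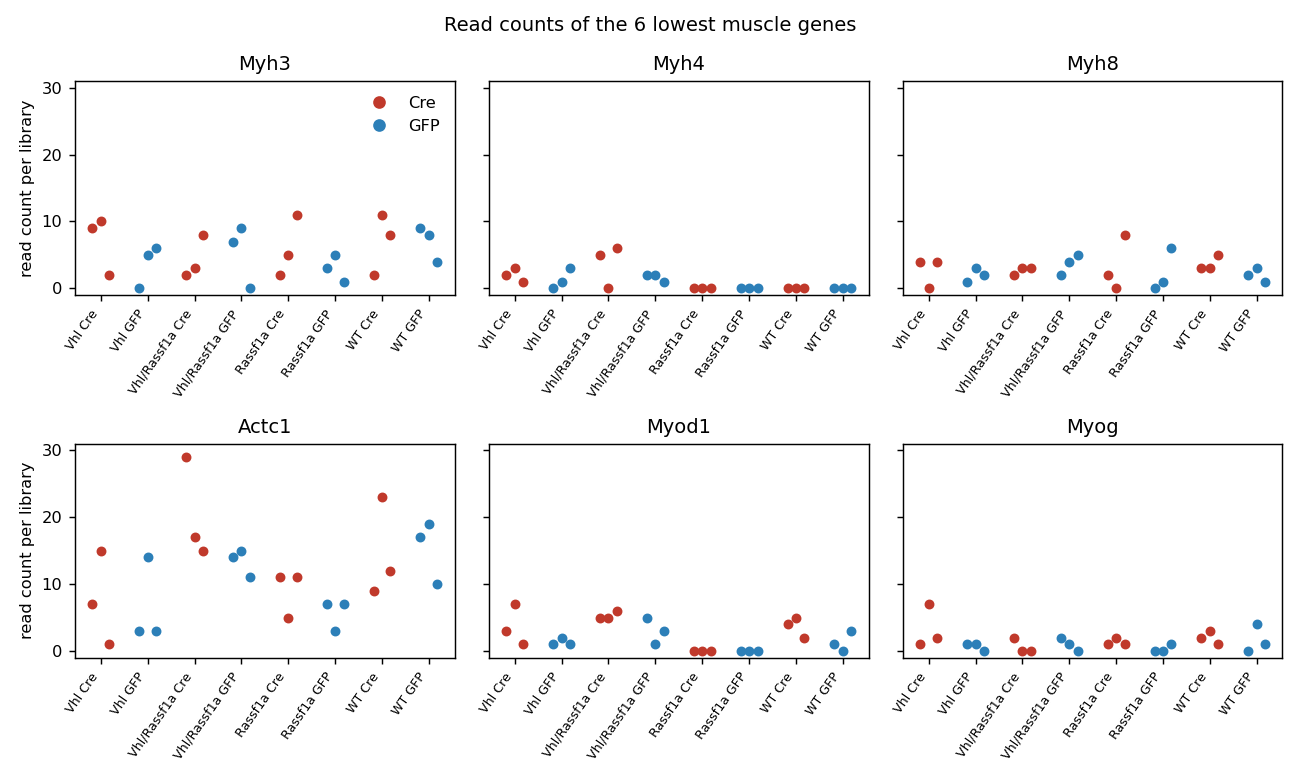
Raw read counts of the 6 lowest muscle genes (Myh3, Myh4, Myh8, Actc1, Myod1 and Myog) in each library by group; points are libraries, on a shared axis. No gene exceeded 29 reads, Myh4 was at 0 in all Rassf1a and WT libraries, and Myod1 at 0 in all Rassf1a libraries.

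Acta1, skeletal muscle alpha-actin (ENSMUSG00000031972, chr8:123891769-123894751, minus strand), was per kilobase the most abundant of the 10 and was high with Cre in both lines. It had 301.3, 367.9 and 350.3 CPM in Vhl Cre libraries, against 76.3, 91.7 and 82.5 in Vhl GFP libraries. It had 419.2, 409.6 and 427.7 CPM in Vhl/Rassf1a Cre libraries, against 154.7, 191.5 and 153.8 in Vhl/Rassf1a GFP libraries. Cre and GFP libraries were far apart in both lines, and all Vhl/Rassf1a Cre libraries lay above all Vhl Cre libraries. Acta1 was 4.07-fold higher with Cre in Vhl cells (log2 2.02, SE 0.10) and 2.51-fold higher in Vhl/Rassf1a cells (log2 1.33, SE 0.10). The Cre effect differed by -0.70 (Vhl/Rassf1a minus Vhl, log2 scale, SE 0.14). The double line had more Acta1 than the Vhl line in both states, with means of 418.9 ± 9.05 against 339.8 ± 34.5 CPM under Cre and 166.7 ± 21.5 against 83.5 ± 7.78 CPM under GFP. Without the libraries that stood apart, the effect in the double line was 1.45 and the difference -0.57 on the log2 scale.

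The order of Acta1 across groups was Vhl/Rassf1a Cre, Vhl Cre, then WT GFP, WT Cre and Vhl/Rassf1a GFP with overlap, then Rassf1a GFP and Rassf1a Cre with overlap, and Vhl GFP last. Per kilobase, group means of Acta1 ran from 54.4 to 273 CPM per kb. Those of smooth muscle alpha-actin, Acta2, ran from 1291 to 1962, of beta-actin, Actb, from 1139 to 1977, and of gamma-actin, Actg1, from 453 to 636 CPM per kb. Skeletal actin message thus stayed under that of these 3 actins in every group.

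Acta2 and Actb were not called in Vhl cells. Acta2 had 2836 ± 175 CPM in Vhl Cre cells and 2937 ± 133 in Vhl GFP cells (log2 fold change -0.05, edgeR adjusted p = 0.580). Actb had 3052 ± 95.5 CPM in Vhl Cre cells and 3070 ± 31.9 in Vhl GFP cells (log2 fold change -0.01, edgeR adjusted p = 0.916).

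Actc1, cardiac alpha-actin (ENSMUSG00000068614, chr2:114047282-114053548, minus strand), stayed at 1 to 29 reads in a library. It had 7, 15 and 1 reads in Vhl Cre libraries, against 3, 14 and 3 in Vhl GFP libraries, and 29, 17 and 15 reads in Vhl/Rassf1a Cre libraries, against 14, 15 and 11 in Vhl/Rassf1a GFP libraries. The groups overlapped or met in both lines, and the log2 fold changes were 0.17 (SE 0.62) in Vhl cells and 0.34 (SE 0.46) in Vhl/Rassf1a cells. Acta1 and Actc1 share no run over 29 bases. Of the 50-base windows of Acta1, 2.22% also occur in other genes, Actb among them, and no 100-base window does. Actb stood far above Acta1 per kilobase, and the part of shared reads in Acta1 was not tested.

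Of the myogenic factors, Myod1 (ENSMUSG00000009471, chr7:46376474-46379099), which starts the muscle programme, had 55 reads in all and 0 to 7 in a library. It had 3, 7 and 1 reads in Vhl Cre libraries against 1, 2 and 1 in Vhl GFP libraries, and 5, 5 and 6 reads in Vhl/Rassf1a Cre libraries against 5, 1 and 3 in Vhl/Rassf1a GFP libraries. All 6 Rassf1a libraries had 0. Myog (ENSMUSG00000026459, chr1:134289989-134292548), which drives differentiation of myoblasts, had 33 reads in all, with 1, 7 and 2 in Vhl Cre libraries and 1, 1 and 0 in Vhl GFP libraries. Cre and GFP libraries overlapped or met for both factors in both lines, and neither passed the filter. Fewer cells with these messages and less message per cell cannot be told apart in bulk RNA, for these and for all other genes here.

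Des, desmin, the intermediate filament that ties myofibrils together and that some mesenchymal cells make too (ENSMUSG00000026208, chr1:75360329-75368579, plus strand), moved less. It had 75.2, 86.2 and 89.1 CPM in Vhl Cre libraries, against 57.8, 59.6 and 65.7 in Vhl GFP libraries. It had 55.4, 52.1 and 57.3 CPM in Vhl/Rassf1a Cre libraries, against 37.3, 51.0 and 41.0 in Vhl/Rassf1a GFP libraries. Cre libraries lay above GFP libraries in both lines, in the double line by a narrow margin set by replicate 2 of the GFP libraries, which stood apart. The log2 fold changes were 0.45 (SE 0.10) in Vhl cells and 0.35 (SE 0.11) in Vhl/Rassf1a cells, and 0.49 in Vhl/Rassf1a cells without the libraries that stood apart. Unlike the heavy chains and Acta1, Des had Cre effects that differed by less than their error, -0.10 (Vhl/Rassf1a minus Vhl, log2 scale, SE 0.15), or 0.05 without the libraries that stood apart. In order, Vhl Cre cells lay above all other groups without overlap. Vhl GFP cells came next by their mean, though their lowest library (57.8 CPM) lay under the highest of WT GFP cells (58.2 CPM). The remaining 6 groups, from Vhl/Rassf1a Cre cells at the top to Rassf1a Cre cells at 37.9 ± 0.80 CPM, overlapped from one to the next. Per kilobase, Des had group means of 10.1 to 22.2 CPM per kb and vimentin, Vim, the main intermediate filament of fibroblasts, 982 to 1088.

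**Figure D4:**
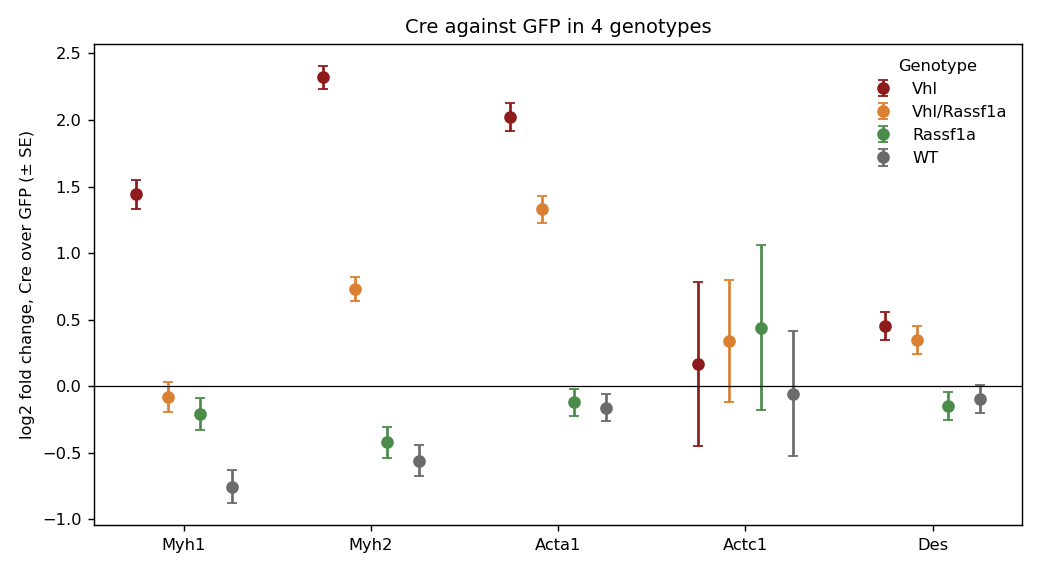
log2 fold change of Cre over GFP for the 5 muscle genes that passed the expression filter, in each of 4 genotypes; points are edgeR estimates and bars 1 SE. Vhl cells stand highest for Myh1, Myh2, Acta1 and Des, Vhl/Rassf1a cells lie below them for each of those 4, and WT cells lie lowest for Myh1 and Myh2.

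Cre against GFP in WT and Rassf1a cells was not used to choose the genes, and was tested. In WT cells both fast heavy chains fell with Cre. Myh1 had 5.77, 5.57 and 4.71 CPM in WT Cre libraries, against 9.15, 8.69 and 9.24 in WT GFP libraries (log2 fold change -0.75, SE 0.12, edgeR adjusted p = 0.00165). Myh2 had 1.77, 1.69 and 1.98 CPM in WT Cre libraries, against 2.93, 2.56 and 2.49 in WT GFP libraries (log2 fold change -0.56, SE 0.12, edgeR adjusted p = 0.0132). All Cre libraries lay below all GFP libraries for both genes. Of the 5 genes tested 2 fell and none rose, where 1.26% of all genes were called in either direction (0.833% rose and 0.428% fell).

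The fall of Myh2 in WT cells was near the limit. Its adjusted p was 0.0547 when replicate 1 of the WT Cre libraries was left out, 0.0969 for replicate 2 of them, 0.135 for replicate 1 of the WT GFP libraries, and 0.0815 with only the groups compared in the fit. Acta1 had 149.9, 184.4 and 167.0 CPM in WT Cre libraries, against 183.6, 165.3 and 211.6 in WT GFP libraries (log2 -0.16, SE 0.10, edgeR adjusted p = 0.772). Des (log2 fold change -0.09, edgeR adjusted p = 0.962) and Actc1 (-0.06) were not called either.

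In Rassf1a cells none of the 5 genes was called, where 0.392% of all genes were (0.187% rose and 0.205% fell). One of the 5 had an unadjusted p under 0.05, and the Wald test of DESeq2 called none. That gene was Myh2, with 1.92, 1.69 and 1.62 CPM in Rassf1a Cre libraries, against 2.21, 2.28 and 2.47 in Rassf1a GFP libraries (log2 fold change -0.42, SE 0.12, edgeR adjusted p = 0.179). Its Cre libraries lay below its GFP libraries, as in WT cells. Myh1 had 7.73, 6.23 and 7.06 CPM in Rassf1a Cre libraries, against 8.72, 7.58 and 8.04 in Rassf1a GFP libraries, with overlap (log2 -0.21, SE 0.12, edgeR adjusted p = 0.865). Acta1 (-0.12, adjusted p = 0.981) and Des (-0.15, adjusted p = 0.940) differed by less than the edgeR test could call.

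The Cre effects can also be set against those of the matching control lines. The difference Vhl minus WT was 2.20 (SE 0.16) for Myh1, 2.88 (SE 0.14) for Myh2, 2.18 (SE 0.14) for Acta1 and 0.54 (SE 0.15) for Des, on the log2 scale. The difference Vhl/Rassf1a minus Rassf1a was 0.13 (SE 0.16) for Myh1, 1.15 (SE 0.15) for Myh2, 1.45 (SE 0.14) for Acta1 and 0.50 (SE 0.15) for Des. These share the libraries on which the genes were chosen and are a description.

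The lines also stood apart in the GFP state. The Vhl GFP and Vhl/Rassf1a GFP libraries entered the choice of genes, so their values against WT GFP cells are a description as well. Myh2 stood at 6.35 ± 0.50 CPM in Vhl GFP and 2.66 ± 0.23 in WT GFP cells (log2 difference 1.25, SE 0.10). Myh1 stood at 12.0 ± 2.30 CPM in Vhl GFP and 9.03 ± 0.30 in WT GFP cells (log2 0.41, SE 0.12), with the lowest Vhl GFP library just above the highest WT GFP library. Acta1 stood at 83.5 ± 7.78 CPM in Vhl GFP and 186.8 ± 23.3 in WT GFP cells (log2 -1.16, SE 0.10). The log2 differences of Des and Actc1 were 0.17 (SE 0.10) and -1.25 (SE 0.54).

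In Vhl/Rassf1a GFP cells Myh2 stood at 5.94 ± 0.10 CPM (log2 difference from WT GFP 1.15, SE 0.10) and Myh1 at 13.55 ± 0.49 CPM (log2 0.59, SE 0.11). Acta1 stood at 166.7 ± 21.5 CPM in Vhl/Rassf1a GFP cells, with libraries that overlapped those of WT GFP cells (log2 -0.16, or -0.28 without the 2 libraries that stood apart). Des stood at 43.1 ± 7.07 CPM in Vhl/Rassf1a GFP and 54.1 ± 4.77 in WT GFP cells (log2 -0.33, SE 0.11, or -0.47 without those libraries), again with overlap. Of 62 other muscle genes tested, from 6 lists described below, 7 were called higher and 11 lower in Vhl GFP against WT GFP cells, where 32.1% of all genes were called (17.2% higher and 14.9% lower). In Vhl/Rassf1a GFP against WT GFP cells 3 were called higher and 2 lower, where 11.5% of all genes were called (6.86% higher and 4.68% lower).

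In Rassf1a GFP against WT GFP cells, a comparison with no library of the choice, 2 of 5 were lower and none higher, where 16.1% of all genes were called (9.39% higher and 6.68% lower). Acta1 had 121.7, 108.5 and 102.5 CPM in Rassf1a GFP libraries, all under the 183.6, 165.3 and 211.6 of WT GFP libraries (log2 -0.75, SE 0.10, edgeR adjusted p = 9.04e-06). Des had 49.0, 39.7 and 37.4 CPM in Rassf1a GFP libraries, against 55.2, 48.9 and 58.2 in WT GFP libraries (log2 -0.37, SE 0.11, edgeR adjusted p = 0.0193). Rassf1a GFP replicate 1, which stood apart, was the one that overlapped WT GFP. The call of Des was lost without WT GFP replicate 1 or 3 or Rassf1a GFP replicate 2 or 3 (adjusted p up to 0.0954), and with only the groups compared (0.0676), and held at -0.49 without the libraries that stood apart (adjusted p = 5.39e-05). Myh1 (-0.15, adjusted p = 0.450) and Myh2 (-0.20, adjusted p = 0.268) were not called. Actc1 had 7, 3 and 7 reads in Rassf1a GFP libraries, against 17, 19 and 10 in WT GFP libraries, and was not called (log2 -1.46, edgeR adjusted p = 0.0834), but was with no filter (0.0171) or with only the groups compared (0.0493).

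Sex-linked genes, named here after their values were seen, moved with some of these comparisons. The Y-linked Ddx3y had 41.0 ± 0.94 CPM in Vhl GFP, 16.5 ± 3.59 in Vhl/Rassf1a GFP and 23.7 ± 4.34 in Rassf1a GFP, against 50.8 ± 3.10 in WT GFP cells. It was higher in Vhl Cre cells, at 58.2 ± 2.78 CPM, than in Vhl GFP cells, while Xist, the RNA that silences an X chromosome in female cells, stood lower at 170.8 ± 26.3 CPM in Vhl Cre, against 262.5 ± 7.55 in Vhl GFP cells (edgeR adjusted p = 0.00143 for Ddx3y and 0.00998 for Xist). Neither was called between Vhl/Rassf1a Cre and GFP cells. The part of these differences in the muscle gene values was not tested.

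Other genes of the sarcomere and of muscle, from 6 lists with 107 genes of which 62 were tested, moved partly with Myh1, Myh2 and Acta1 and partly not. In Vhl Cre against GFP cells 19 of the 62 rose and 7 fell, where 17.4% of all genes rose and 18.7% fell. Their median log2 fold change was 0.18, against -0.01 over all genes. In Vhl/Rassf1a Cre against GFP cells 8 rose and 5 fell, where 14.9% of all genes rose and 14.8% fell, with a median of 0.10. Without the libraries that stood apart, 12 rose and 7 fell. In WT cells 2 fell, namely the thin filament gene Nebl and the enolase Eno3, and none rose, where 0.428% of all genes fell. In Rassf1a cells none was called (3 had an unadjusted p under 0.05, and DESeq2 called 0). All genes tested passed the same filter, which a low gene can pass through the group where it is high. Myh13, Myl7 and Xirp1, named below, had at most 29, 80 and 20 reads in a library. The part of the filter in the counts of genes that rose or fell was not tested.

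Of the thick filament, 4 of 9 genes tested rose in Vhl cells and none fell, where 17.4% of all genes rose and 18.7% fell. Among those that rose, Myl7 and Myh13 had at most 80 and 29 reads in a library. They may have passed the filter through a Cre group, which was not tested. Myh7b, an ancient slow heavy chain, had 1.22 ± 0.32 CPM in Vhl Cre and 0.256 ± 0.10 in Vhl GFP cells (log2 2.25, SE 0.32, edgeR adjusted p = 5.53e-06). Myl7, an atrial light chain, had 0.993 ± 0.11 CPM in Vhl Cre and 0.141 ± 0.098 in Vhl GFP cells (log2 2.74, SE 0.45, edgeR adjusted p = 3.53e-05). Myh7b and Myl7 also rose in the double line, Myh7b by 1.75 (SE 0.28) and Myl7 by 3.52 (SE 0.45) on the log2 scale. The M-band gene Myom2 and the extraocular heavy chain Myh13 rose in Vhl cells as well (log2 0.98 and 2.30) and were not called in the double line (0.69 and 1.10, edgeR adjusted p = 0.0549 and 0.0662). Myom1, another myomesin, had 19.5 ± 0.46 CPM in Vhl/Rassf1a Cre and 33.1 ± 2.78 in Vhl/Rassf1a GFP cells. It fell by 0.76 on the log2 scale (edgeR adjusted p = 5.24e-09).

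Of the thin filament, 3 of 14 rose and 2 fell in Vhl cells, near the shares of all genes (17.4% rose and 18.7% fell). Tnnt2, cardiac troponin T, had 4.33 ± 0.22 CPM in Vhl Cre and 1.58 ± 0.39 in Vhl GFP cells (log2 1.46, SE 0.18, edgeR adjusted p = 8.5e-07). It had 3.43 ± 0.24 CPM in Vhl/Rassf1a Cre and 2.87 ± 0.64 in Vhl/Rassf1a GFP cells (log2 0.24, edgeR adjusted p = 0.309). Nebl, which makes nebulette, and the troponin Tnnc1 rose too (log2 0.85 and 0.63). The tropomyosins Tpm1 and Tpm3, which fibroblasts make in quantity, were lower (log2 -0.27 and -0.14). In the double line 1 of 14 rose (Nebl, log2 0.31, edgeR adjusted p = 0.0295) and 2 fell (Tpm1 and Tpm3). Of all genes 14.9% rose and 14.8% fell there.

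Of the Z disc, which anchors thin filaments, 5 of 11 rose in Vhl cells and none fell. Of all genes 17.4% rose and 18.7% fell there. The small heat shock protein Cryab had 177.5 ± 9.99 CPM in Vhl Cre and 133 ± 4.58 in Vhl GFP cells (log2 0.42, SE 0.08, edgeR adjusted p = 0.000194). Xirp1 rose by 2.01 from a low level, Synpo2l by 0.76, Ldb3 by 0.33 and Pdlim5 by 0.16 on the log2 scale. The same limit of the filter holds for Xirp1, with at most 20 reads in a library. In the double line 1 of 11 was called, Pdlim5 (0.16), where 29.7% of all genes were.

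Of 11 calcium handling and muscle energy genes, 3 rose and 1 fell in Vhl cells (DESeq2 called 2 and 1), and 3 rose and 1 fell in the double line, beside the shares of all genes given above. Ryr1, the calcium release channel of skeletal muscle, had 1.28 ± 0.055 CPM in Vhl Cre and 0.495 ± 0.056 in Vhl GFP cells (log2 1.37, SE 0.27, edgeR adjusted p = 0.000324). The muscle phosphoglycerate mutase Pgam2 rose in both lines (log2 0.69 in Vhl and 0.51 in Vhl/Rassf1a cells). Many glycolytic genes answer to HIF, and the part of HIF in these values was not tested. Eno3, muscle enolase, fell in both: it had 27.3 ± 2.67 CPM in Vhl Cre and 35.2 ± 0.61 in Vhl GFP cells, and 41.5 ± 0.68 CPM in Vhl/Rassf1a Cre and 85.0 ± 13.0 in Vhl/Rassf1a GFP cells. Its log2 fold changes were -0.36 (edgeR adjusted p = 0.0129) and -1.04 (1.28e-07), and the first was lost without Vhl Cre replicate 1.

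Among 9 tested regulators of muscle, 1 rose and 3 fell in Vhl cells, where 17.4% of all genes rose and 18.7% fell. None was called in the double line (0 at an unadjusted p under 0.05, and 0 by DESeq2), where 29.7% of all genes were. Six4 (-0.42) and its partner Eya2 (-0.92), which act upstream of Myod1, were among those that fell in Vhl cells. Pax3 rose there by 1.13 on the log2 scale from 0.222 CPM in Vhl GFP cells. The genes of fusion and synapse rose in 3 of 8 and fell in 1 of 8 in Vhl cells, beside the same shares of all genes for those cells. Chrna1, a subunit of the acetylcholine receptor, had 6.13 ± 0.37 CPM in Vhl Cre and 1.38 ± 0.28 in Vhl GFP cells (log2 2.15, SE 0.15, edgeR adjusted p = 1.13e-10), and rose by 1.74 (SE 0.15) in the double line. Chrnb1 (0.53) and Dmd (0.29) rose in Vhl cells. Cav3, the muscle caveolin, fell by 2.38 on the log2 scale in both lines, to 0.218 ± 0.069 CPM in Vhl Cre, against 1.16 ± 0.19 in Vhl GFP cells.

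**Figure D5:**
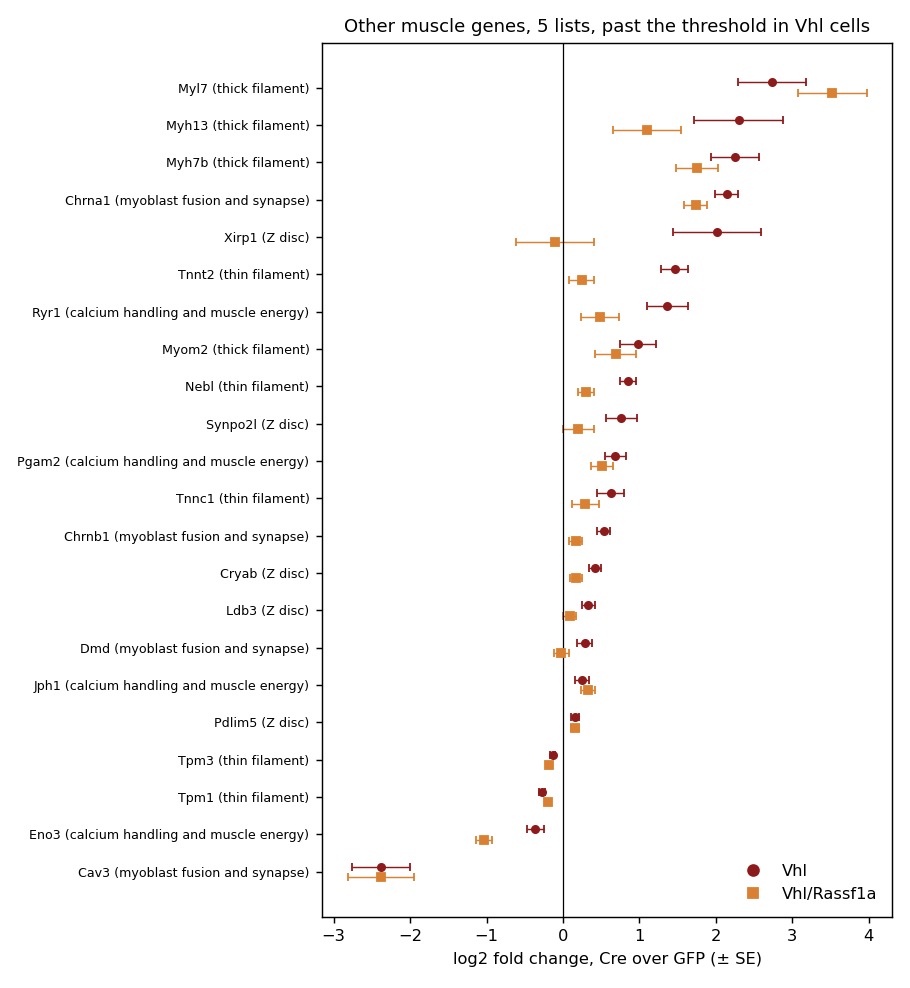
log2 fold change of Cre over GFP for the 22 other muscle genes past the threshold in Vhl cells, regulators aside, with their list in brackets; points are edgeR estimates, bars 1 SE, circles Vhl and squares Vhl/Rassf1a cells. In Vhl cells 18 of these genes lie above 0 and 4 below.

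Some of these calls did not hold when 1 library was left out. Those of Dmd, Pax3 and Pdlim5 in Vhl cells were lost without any of 4 of the 6 libraries, Vhl Cre replicates 1 and 2 among them in each case, and that of Tnnc1 without Vhl Cre replicate 2. In the double line those of Nebl and Pdlim5 were lost without Vhl/Rassf1a GFP replicate 2, which stood apart, or Vhl/Rassf1a Cre replicate 1, and that of Nebl also without Vhl/Rassf1a GFP replicate 3 or Vhl/Rassf1a Cre replicate 2. The fall of Eno3 in WT cells was lost without replicate 1 or 3 of either WT group.

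The difference of Cre effects between the lines was tested for these other genes. Of the 62, 4 were called lower in the double line and none higher, where 3.44% of all genes were called higher and 2.65% lower. They were Tnnt2 (-1.22, SE 0.25, edgeR adjusted p = 0.00364), Nebl (-0.55, SE 0.15, edgeR adjusted p = 0.0261), Myom1 (-0.60, SE 0.09, edgeR adjusted p = 0.000219) and Eno3 (-0.67, SE 0.16, edgeR adjusted p = 0.00966). Myh7b, Myl7 and Chrna1, which rose in both lines, were not among them. The call of Nebl was lost when any of 8 of the 12 libraries was left out. For the difference Vhl minus WT, 12 of the 62 were called higher and 6 lower, where 23.2% of all genes were called (10.7% higher and 12.5% lower). For Vhl/Rassf1a minus Rassf1a, 2 were higher and 5 lower, where 15.0% of all genes were called (7.95% higher and 7.1% lower).

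Some genes of differentiated muscle were absent or nearly so, and others were read at low levels. Both are named here after their values were seen. Over 24 libraries no library had a read of Sln or Smpx, and the most any library had was 1 read of Mymx or Myf6, 2 of Ckm, Tnnc2, Myf5 or Ckmt2, 4 of Mymk, 5 of Mb, 7 of Myl1 and 12 of Pax7. Other genes of the sarcomere had more reads over the 24 libraries: Actn3 had 2465, Neb 1952, Tnnc1 1816, Tnni1 858, Ryr1 813, Tnnt3 729, Tnni2 597 and Mylpf 379. Of these, Tnnc1 and Ryr1 rose in Vhl cells and the others were not called between Cre and GFP there.

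The neighbours of the heavy chain cluster on chromosome 11 moved in part. Of 7 tested, 3 rose in Vhl cells and none fell, where 17.4% of all genes rose and 18.7% fell. Gas7 had 58.8 ± 2.21 CPM in Vhl Cre and 26.3 ± 1.68 in Vhl GFP cells (log2 1.16, SE 0.07, edgeR adjusted p = 1.12e-11). Shisa6 rose by 0.63 and Myh13 by 2.30. Myh13, also counted with the thick filament above, had at most 29 reads in a library. In the double line Gas7 (0.74) and Shisa6 (0.98) rose, where 14.9% of all genes did. Adprm, Map2k4 and Sco1 differed by 0.11 or less on the log2 scale in both lines and were not called.

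Smooth muscle genes, many of which answer to serum response factor as Acta1 does, rose in 3 of 15 and fell in 2 of 15 in Vhl cells. Myh11, the smooth muscle heavy chain, had 77.3 ± 5.59 CPM in Vhl Cre and 46.8 ± 3.81 in Vhl GFP cells (log2 0.72, SE 0.07, edgeR adjusted p = 1.16e-08), Tagln rose by 0.23, and Synm and Mylk were lower (-0.66 and -0.37). Of 12 non-muscle actin and myosin genes, 3 rose and 2 fell, among them the light chain Myl12b, which fell by 0.57. In the double line 2 of the 15 rose and 2 fell, as did 2 and 2 of the 12. Of all genes 17.4% rose and 18.7% fell in Vhl cells, and 14.9% rose and 14.8% fell in the double line, so these counts are near those shares.

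Markers of other cells were set beside these values, on lists so short that 1 gene moves a share far, and with the same shares of all genes called as above. Epithelial markers rose in 4 of 4 tested in Vhl cells and in 2 of 4 in the double line, and summed over 5 genes to 124.9 to 144.9 CPM in Vhl Cre against 37.5 to 38.6 in Vhl GFP libraries, and to 192.6 to 200.3 CPM in Vhl/Rassf1a Cre against 75.1 to 96.6 in Vhl/Rassf1a GFP libraries. Most of that was the keratin Krt19, at 122 ± 9.60 CPM in Vhl Cre and 33.8 ± 0.90 in Vhl GFP cells. Satellite cell and myoblast markers rose in 3 of 6 and fell in 1 of 6 in Vhl cells. Summed over 9 genes they came to 519.9 to 532.2 CPM in Vhl Cre against 373.1 to 391.5 in Vhl GFP libraries. The sum was also higher with Cre in Vhl/Rassf1a cells (495.6 to 518.5 against 370.1 to 419.9 CPM) and in WT cells (437.4 to 455.7 against 381.1 to 408.0). In Rassf1a cells Cre (449.9 to 479.3 CPM) and GFP libraries (403.3 to 450.5) overlapped. The adhesion molecule Ncam1, at 299 ± 5.79 CPM in Vhl Cre and 169.9 ± 4.42 in Vhl GFP cells, made up most of that sum in the Vhl Cre libraries but not in the Vhl GFP libraries, and Pax7 and Myf5 were near 0 as given above. Fibroblast markers fell in 5 of 9 in Vhl cells, and in 1 of 9 in the double line, where 1 rose. Endothelial markers rose in 3 of 5 in Vhl cells and 2 of 5 in the double line, cardiac markers in 2 of 5 and 1 of 5, and macrophage markers in 1 of 4 in each. The endothelial sum was 11.9 to 13.1 CPM in Vhl Cre against 5.55 to 6.75 in Vhl GFP libraries. WT GFP libraries had 11.7 to 12.8 CPM, so the Vhl Cre libraries stood near the WT GFP level. Of 3 neural markers 2 fell in each line, and 1 rose in the double line. The part of such cells in the muscle gene values was not tested. All 10 hypoxia-responsive genes rose in both lines, with a median of 2.05 in Vhl and 2.10 in Vhl/Rassf1a cells on the log2 scale.

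Across the 8 group means of log2 CPM, Myh1 and Myh2 followed each other (Pearson r = 0.965, and 0.954 over the 24 libraries), and both followed Acta1 less closely (0.545 for Myh1 and 0.638 for Myh2 over 8 groups). These are descriptions over points that share libraries. The genes outside the list most like Myh1 were B3gat3 (0.973), Cnppd1 (0.972) and Cdipt (0.971), which span only 0.35 to 0.55 log2 units across groups. Most like Myh2 were Kif1c (0.988), Npy1r (0.987) and Dach1 (0.986), and most like Acta1 were Ampd3 (0.998), the keratin Krt19 (0.994) and Gpr1 (0.992). For Des they were Gng5 (0.982), Reep6 (0.982) and Gja4 (0.981), and for Actc1 Tdg (0.978), Prim2 (0.973) and Trpv2 (0.963). Over the 24 libraries 2 of these 15 were again among the 3 most like their gene. Krt19 and Acta1 also stood together there (0.987).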

How the data were processed

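RNA of mouse embryonic fibroblasts was sequenced in 24 libraries made with a stranded TruSeq kit from RNA extracted with a NucleoSpin kit (per the labels' protocols). The submitters' processing notes name Trimmomatic 0.38, STAR 2.5.2b and the build GRCm38. The deposited values are raw read counts per Ensembl gene, made by the authors. Neither the program that counted the reads nor its use of strand or annotation is stated in those notes. Of 45706 gene identifiers, 45143 were matched to a symbol. Counts were fitted with edgeR 4.0.16 in R 4.3.3 (TMM scaling, filterByExpr with a minimum count of 10, quasi-likelihood F test) over all 8 groups, with 10 comparisons, 16 residual degrees of freedom and Benjamini-Hochberg adjustment over the 16573 genes tested. Called means an adjusted p under 0.05. The SE is the log2 fold change divided by the root of F. DESeq2 1.42.0, no filter, other scaling, only the groups compared, a replicate block and leaving out libraries were the alternatives. Scripts were tested on simulated data. Intervals and limits from counts are exact Poisson at 95% and cover counting error only. Coordinates are those of GENCODE M21 on GRCm38. Replicate numbers did not pair samples: deviations of Cre and GFP libraries with the same number correlated at -0.080 to 0.033. The 10 genes, the gene lists and the tests were chosen with earlier results of these data known. Named genes of a list were up to 4 of smallest adjusted p in Vhl Cre against GFP cells and up to 2 in the double line. One list gene that this rule names is not reported here. The design note speaks of single kidney epithelial cells, and the sample labels were followed instead.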

Additional observations from a re-analysis of the deposited data

Results flagged for a closer look

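These results stand out because the Cre effect differed between the Vhl/Rassf1a and the Vhl line in a test of the difference itself (Vhl/Rassf1a minus Vhl, log2 scale, edgeR's quasi-likelihood test with Benjamini-Hochberg adjustment). The difference was -0.60 for Myom1 (SE 0.09, adjusted p = 0.000219), -0.55 for Nebl (SE 0.15, adjusted p = 0.0261), -1.22 for Tnnt2 (SE 0.25, adjusted p = 0.00364) and -0.67 for Eno3 (SE 0.16, adjusted p = 0.00966). Outside the sarcomere it was -0.52 for the smooth muscle heavy chain Myh11 (SE 0.09, adjusted p = 0.00126), 0.34 for the myosin light chain Myl12b (SE 0.09, adjusted p = 0.0226) and -0.42 for Gas7, a neighbour of the heavy chain cluster (SE 0.10, adjusted p = 0.0104). Of all genes tested, 6.09% were called for this difference. The call of Nebl was lost when any of several single libraries was left out, as given above.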

How the results depend on the processing

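No result turned its direction where it was called. Counts of genes called moved by over 1.5 times in these cases, and the cause was not tested. With only the groups compared in the fit, Vhl/Rassf1a Cre against GFP gave 3037 genes (4919 in the fit of all groups), Rassf1a Cre against GFP 12 (65), the difference Vhl/Rassf1a minus Vhl 637 (1010), Rassf1a GFP against WT GFP 1461 (2664) and Vhl/Rassf1a GFP against WT GFP 762 (1913). Rassf1a Cre against GFP gave 101 genes with DESeq2, 151 with no filter and 114 without the 2 libraries that stood apart, which also took Vhl/Rassf1a minus Vhl to 1859. Leaving out 1 library at a time gave 26 to 67 genes for Rassf1a Cre against GFP and 87 to 178 for WT Cre against GFP (209 with all libraries). The other muscle genes that fell were 1 in Rassf1a cells with no filter (0 with it) and 1 to 2 in WT cells with 1 library left out (2). Of the 15 genes most like a muscle gene over 8 groups, 2 were so over 24 libraries. With the replicate number as a block, 5849 genes were called in Vhl, 4760 in Vhl/Rassf1a, 62 in Rassf1a and 189 in WT cells.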
